A study of Mus musculus with 25 samples.

Results

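The Wnt genes encode secreted, lipid-modified growth factors, and 10 of them were followed here across the forming secondary palate of the mouse: Wnt2, Wnt2b, Wnt4, Wnt5a, Wnt5b, Wnt6, Wnt9a, Wnt9b, Wnt11 and Wnt16. They were taken by their gene symbols from a table of 37406 genes, in which 19 genes carried a Wnt ligand symbol, and each of the 10 had a single entry. All palates are labelled as wild type, strain CD1, at E14.5, and no treatment is given. Laser capture microdissection, which cuts chosen pieces from a tissue section, gave 8 compartments, since the anterior and the posterior palate were each cut into medial and lateral and into oral and nasal pieces. Each compartment had 3 RNA-Seq libraries and the anterior nasal compartment had 4, making 13 anterior and 12 posterior libraries. The labels do not say which libraries share an embryo, so p-values measure the spread between these libraries.

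A Wnt protein is acylated by Porcn and carried to the cell surface by Wls, and it then binds a Frizzled receptor on the same or a neighbouring cell. With the co-receptors Lrp5 and Lrp6 this stabilises beta-catenin, which turns on target genes together with the TCF/LEF factors. Other Wnt proteins, of which Wnt5a and Wnt11 are the best known, act largely without beta-catenin through receptors such as Ror2 and Ryk and steer cell polarity and movement. In the palate, Wnt5a is known from the mesenchyme of the shelves and is needed for their closure, and Wnt9b is needed for fusion of the facial prominences that carry them.

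Values are RPKM, reads scaled to the length of the transcript and the size of the library, so levels can be set side by side between genes. All 6 palate mesenchyme markers (Prrx1 and Twist1 among them) were detected, summing to 463 to 903 RPKM in each library, and 12 epithelial markers summed to 23.7 to 152 RPKM, so epithelium was present in every library. The deepest library had 4.00 times the reads of the shallowest. Posterior medial replicate 2 stood apart from the rest, with a median correlation of 0.658 to the other libraries on the log2 scale across genes. Several tests of the members are given with and without it, while calls of pathway genes are given with it only. In 6 libraries the name of the alignment carried another locus (Tgfbr2 in 4, ERK2 in 2), which the labels do not explain. These were anterior nasal replicate 4, anterior oral replicate 3, and replicate 1 of posterior nasal, posterior oral, posterior lateral and posterior medial.

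Wnt5a was the most abundant Wnt in the palate, with the highest mean of the 10 genes in all 8 compartments. Its mean was 96.2 ± 5.02 RPKM in anterior lateral (SD, n = 3) and 16.0 ± 1.36 RPKM in posterior nasal (SD, n = 3), the ends of its range over compartments. A second tier was made up of Wnt2b, Wnt9a, Wnt2 and Wnt11, with compartment means of at most 8.29, 7.71, 9.24 and 6.78 RPKM. Wnt5b had compartment means of 2.05 to 3.89 RPKM and Wnt16 of 0.58 to 4.93 RPKM, and Wnt4, Wnt6 and Wnt9b never exceeded 2.86, 1.31 and 0.82 RPKM in any library. Of the 9 Wnt genes outside the list, which include Wnt1, Wnt3a and Wnt7b, the highest value in any library was 3.57 RPKM, for Wnt3a.

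**Figure D1:**
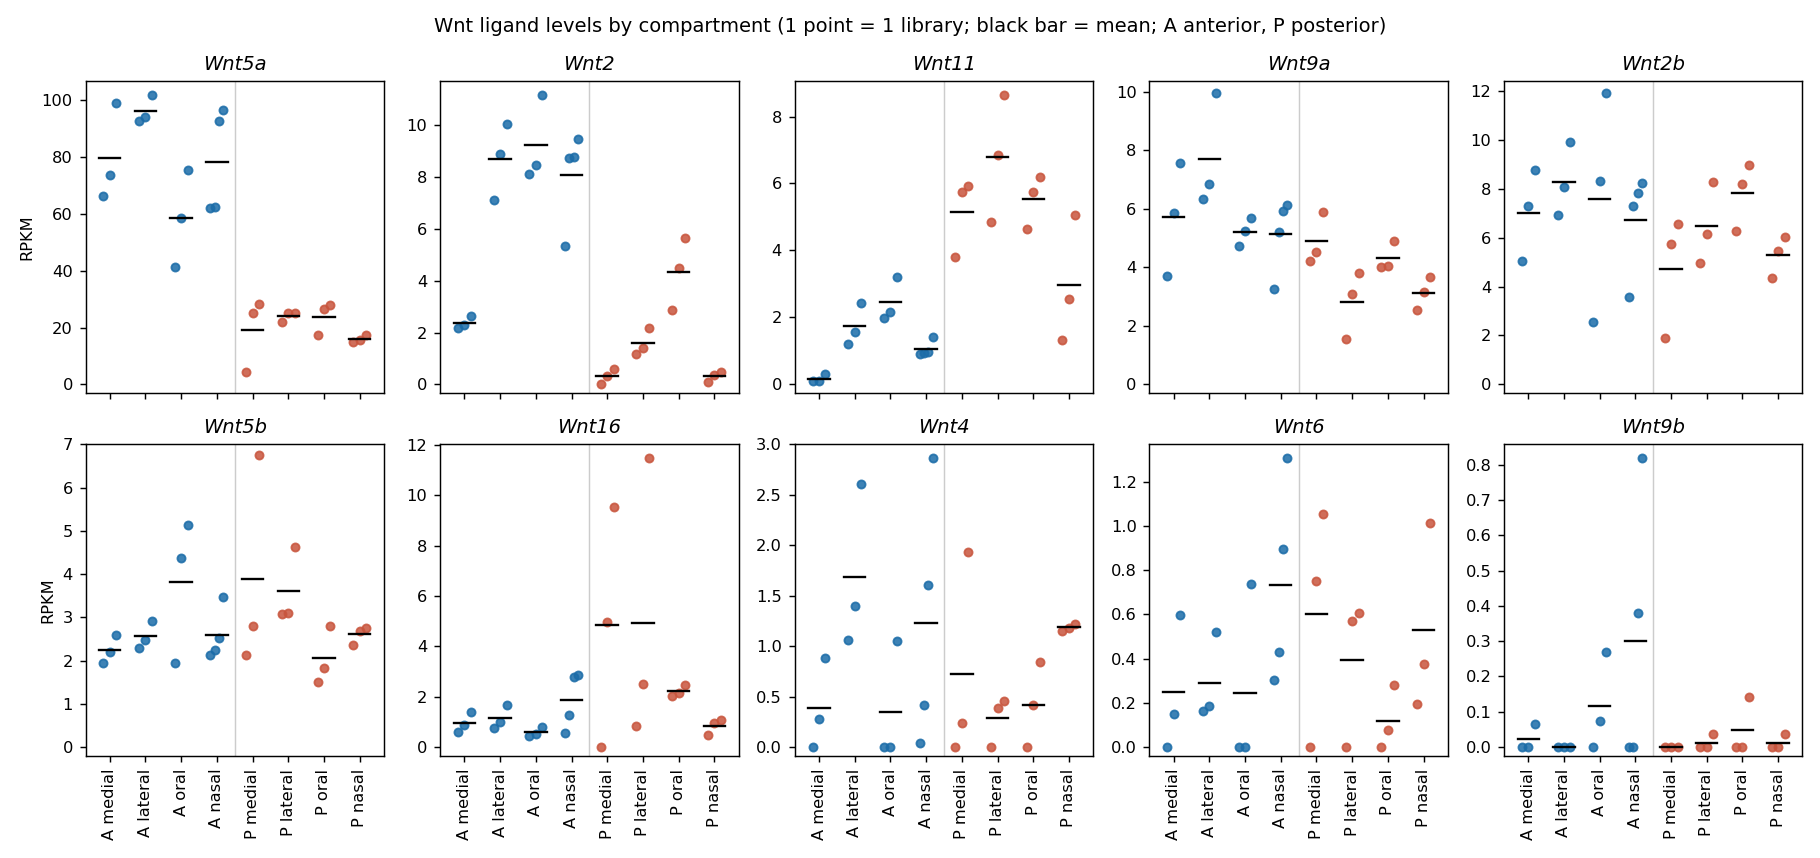
RPKM (vertical axis, 1 scale per gene) of the 10 Wnt ligands in 8 compartments, with 1 point per library, anterior in blue, posterior in red and the mean as a black bar. Wnt5a falls from 41.4 RPKM or more in all anterior libraries to 28.2 RPKM or less in all posterior ones. Wnt11 has higher means in the posterior compartments, but its libraries overlap between the ends (anterior up to 3.22 RPKM, posterior from 1.34 RPKM). Wnt2b overlaps between the ends too.

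The summed RPKM of the 19 Wnt genes was 107 ± 21.6 in anterior libraries (SD, n = 13) and 46.7 ± 11.1 in posterior libraries (SD, n = 12). Wnt5a accounted for 72.6% ± 5.90 of that sum in the anterior palate (range 62.4% to 81.0%) and for 43.3% ± 9.76 in the posterior palate (range 17.3% to 54.0%). The 17.3% was that of posterior medial replicate 2, and the next lowest posterior library, posterior oral replicate 1, held 37.0%. Leaving Wnt5a out, the remaining 18 genes summed to 28.8 ± 5.95 RPKM and 25.9 ± 5.73 RPKM, and their ranges over libraries (18.1 to 35.4 and 19.8 to 37.3 RPKM) overlapped. Within it Wnt2 went from 6.86% ± 3.18 of the whole sum in anterior libraries to 3.20% ± 3.40 in posterior ones, and Wnt11 went from 1.29% ± 1.02 to 11.3% ± 5.11. In the posterior nasal compartment the 9 Wnt genes outside the list made up 10.4% ± 1.73 of the sum (SD, n = 3), against 3.13% ± 2.32 in anterior nasal (SD, n = 4, range 0.44% to 6.10%), where the whole sum was larger (109 ± 18.8 against 36.7 ± 1.75 RPKM).

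**Figure D2:**
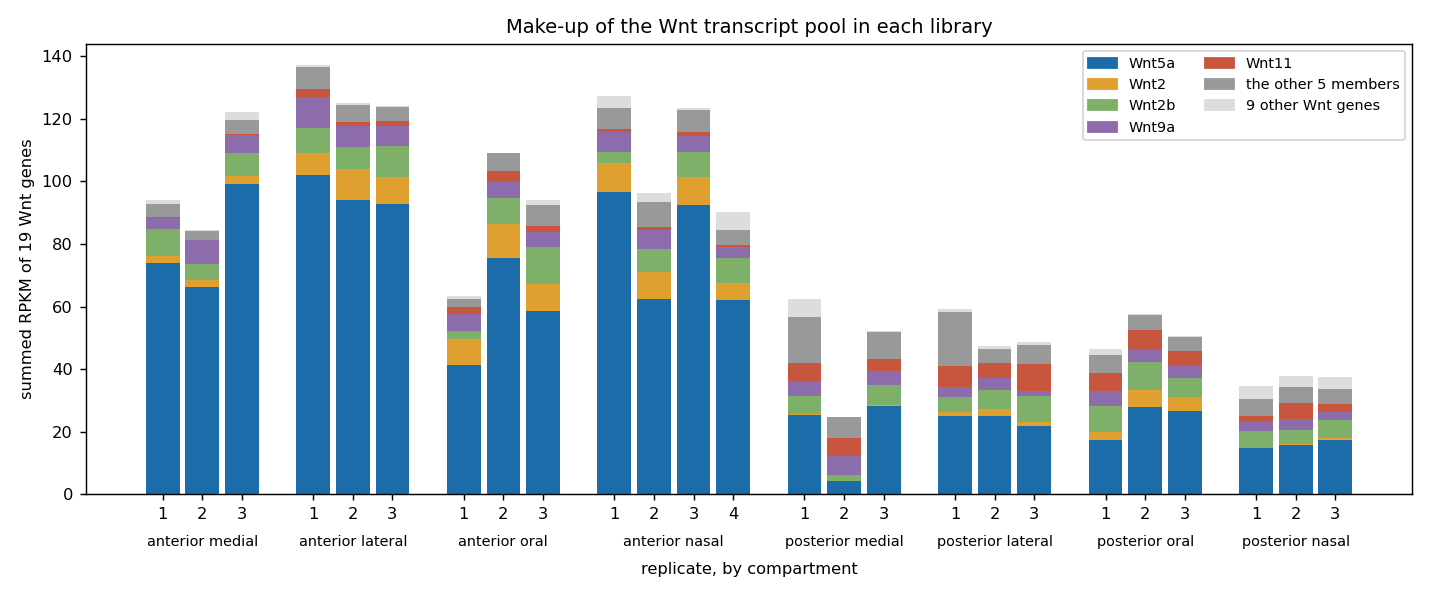
Summed RPKM of 19 Wnt genes (vertical axis) in each of 25 libraries, ordered by compartment, with the share of each gene stacked by colour. The blue Wnt5a block shrinks from 62.4% to 81.0% of the bar in anterior libraries to 17.3% to 54.0% in posterior ones, and the red Wnt11 block is larger in posterior libraries. The 17.3% is posterior medial replicate 2, and the next lowest posterior library holds 37.0%.

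In the mm9 coordinates of the deposited values, the members lie on chromosomes 1, 3, 4, 6, 7, 11 and 14. Wnt5a spans chr14:29318659-29338620, Wnt2 chr6:17938940-17980445, Wnt9a chr11:59120432-59147054 and Wnt11 chr7:105983622-106003257. Wnt5b, at chr6:119382549-119494365, overlaps Fbxl14, which averaged 9.03 RPKM, in their whole spans. Whether their exons overlap, and whether reads of the pair can be told apart, was not tested. The upstream sequences of Wnt2, Wnt9a and Wnt11 are given because these 3 genes, beside Wnt5a, were called between the anterior and posterior palate. That was among genes with a mean of at least 1 RPKM, at an adjusted p under 0.05 in limma. Wnt2 and Wnt9a were lower and Wnt11 was higher in the posterior palate. The Wnt9a call was weak, as it was lost when any of 17 of the 25 libraries was left out. They are the 250 bases before the RefSeq start site in GRCm38.p6, written 5′ to 3′ on the strand of the gene, from chr6:18030446-18030695 (minus strand) for Wnt2, chr11:59306680-59306929 (plus strand) for Wnt9a and chr7:98834862-98835111 (plus strand, the first of 2 starts) for Wnt11. Capitals mark the motifs found on either strand: the GC box GGGCGG, the TCF/LEF core CTTTGA and the TATA box TATAAA.
Wnt2: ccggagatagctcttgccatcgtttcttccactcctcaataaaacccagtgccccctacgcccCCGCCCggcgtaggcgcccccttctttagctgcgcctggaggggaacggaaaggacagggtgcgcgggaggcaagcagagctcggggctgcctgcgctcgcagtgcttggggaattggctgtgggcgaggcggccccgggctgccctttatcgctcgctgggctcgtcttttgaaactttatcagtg
Wnt9a: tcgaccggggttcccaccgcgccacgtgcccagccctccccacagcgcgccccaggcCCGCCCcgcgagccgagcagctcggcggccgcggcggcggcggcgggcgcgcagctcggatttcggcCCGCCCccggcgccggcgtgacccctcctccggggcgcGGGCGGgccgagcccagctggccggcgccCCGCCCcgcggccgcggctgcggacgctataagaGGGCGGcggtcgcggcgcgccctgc
Wnt11: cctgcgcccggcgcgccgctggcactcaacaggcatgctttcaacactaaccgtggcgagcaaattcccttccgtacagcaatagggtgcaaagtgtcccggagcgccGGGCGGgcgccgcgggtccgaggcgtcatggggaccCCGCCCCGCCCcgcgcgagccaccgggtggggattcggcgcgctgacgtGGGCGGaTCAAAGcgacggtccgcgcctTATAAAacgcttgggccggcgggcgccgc

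Wnt11 held all 3 kinds of motif, with the TATA box 29 to 24 bases and the TCF/LEF core 50 to 45 bases before the start, and 4 GC boxes, of which a pair shared 1 base. Wnt9a held 5 GC boxes and Wnt2 held 1, and neither held the TCF/LEF core or the TATA box. Windows were found for 9 of the 10 members, all but Wnt5a, and there were 12 in all. The GC box was in 9 of these windows, against 32.7% of 32851 windows of the same length in the reference table. The TCF/LEF core was in 2 of 12, against 13.8%, and the TATA box in 1 of 12, against 12.4%. The homeobox cores TAATTA and TAATTG were in none of the 12, against 4.84% and 7.17%.

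The anterior and posterior palate were compared first over all compartments, among genes that reached 10 RPKM in 6 or more libraries. Wnt5a was the single member to pass this minimum and was called at an adjusted p under 0.05, as were 3.32% of the 8608 genes tested. Its anterior libraries held 73.9, 66.3 and 99.0 RPKM in medial, 102, 94.0 and 92.6 RPKM in lateral, 41.4, 75.4 and 58.7 RPKM in oral and 96.5, 62.4, 92.6 and 62.0 RPKM in nasal compartments. Its posterior libraries held 25.2, 4.30 and 28.2 RPKM in medial, 25, 25 and 21.8 RPKM in lateral, 17.2, 27.8 and 26.5 RPKM in oral and 14.8, 15.6 and 17.5 RPKM in nasal compartments. Every anterior library was above every posterior one, which held, in either direction, for 0.267% of the genes tested, and 4.30 RPKM was the value of posterior medial replicate 2. In bulk samples such as these, fewer expressing cells and less RNA per cell cannot be told apart.

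Wnt5a was also lower in posterior libraries inside each run in which both ends were sequenced. It held 66.3 to 99.0 RPKM in the 3 anterior and 4.30 to 28.2 RPKM in the 5 posterior libraries of 1 run, 58.7 and 62.0 against 14.8 and 17.2 RPKM in a run with 2 of each, and 92.6 against 17.5 to 25 RPKM in a run with 1 anterior and 3 posterior libraries. Between compartments of the same end its levels were closer. The order of anterior means was lateral, medial, nasal and oral, and neighbours in this order overlapped. Neighbours in the order of the posterior means overlapped too, while posterior lateral (21.8 to 25 RPKM) and posterior nasal (14.8 to 17.5 RPKM), the ends of that order, did not. The gap between the lowest anterior compartment, oral with 58.5 ± 17 RPKM, and the highest posterior one, lateral with 23.9 ± 1.84 RPKM, was the single place in the order where libraries did not overlap.

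Wnt2, a ligand of the beta-catenin branch known from lung and vascular development, was lower in the posterior palate. It held 2.17, 2.31 and 2.62 RPKM in anterior medial, 7.12, 10.05 and 8.90 RPKM in anterior lateral, 8.12, 11.2 and 8.45 RPKM in anterior oral and 9.48, 8.75, 8.80 and 5.35 RPKM in anterior nasal libraries. In the posterior palate it held 0.61, 0 and 0.30 RPKM in medial, 1.17, 2.18 and 1.42 RPKM in lateral, 2.87, 5.65 and 4.49 RPKM in oral and 0.08, 0.49 and 0.38 RPKM in nasal libraries. At each of the 4 positions the anterior libraries lay above the posterior ones (as for 12.5% of genes in medial, 19.2% in lateral, 8.89% in oral and 20.2% in nasal, counted in either direction), although posterior oral was above anterior medial. The 0 was in posterior medial replicate 2, and the posterior nasal values stood for 1 to 4 reads.

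Wnt11, a ligand known for acting on cell movement without beta-catenin, went the other way. Anterior medial held 0.10, 0.10 and 0.30 RPKM, equal to 1, 1 and 3 reads, while anterior lateral held 2.42, 1.22 and 1.57 RPKM, anterior oral 2.15, 3.22 and 1.99 RPKM and anterior nasal 0.97, 0.90, 1.42 and 0.92 RPKM. In the posterior palate it held 5.91, 5.73 and 3.80 RPKM in medial, 6.84, 4.86 and 8.63 RPKM in lateral, 5.74, 6.19 and 4.63 RPKM in oral and 1.34, 5.05 and 2.56 RPKM in nasal libraries. Posterior libraries were above anterior ones at the medial, lateral and oral positions (non-overlap in either direction held for 12.5%, 19.2% and 8.89% of genes), while in nasal they overlapped through the lowest posterior library, of 1.34 RPKM. In mean level all 4 posterior compartments were above all 4 anterior ones, the reverse of Wnt5a.

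Neither gene passed the 10 RPKM minimum, so both were also tested over the 14295 genes with a mean of at least 1 RPKM, of which 3.67% were called. Here 4 of the 7 members tested were called in limma. On the log2(RPKM + 0.1) scale Wnt2 fell by 2.77 from anterior to posterior (SE 0.54, adjusted p = 0.00222), Wnt11 rose by 2.17 (SE 0.41, adjusted p = 0.00190), and Wnt5a fell by 1.99 (SE 0.23, adjusted p = 3.73e-06). With a pseudocount of 1 the sizes for Wnt2 and Wnt11 were -1.78 and 1.42. The Wnt2 and Wnt11 calls were kept in a limma fit of 8 compartment means with the sequencing run as a covariate (adjusted p = 4.27e-04 and 0.00614). They were also kept without any single library, where adjusted p-values reached 0.00472 and 0.00433 at most. Inside the run shared by 3 anterior medial and 5 posterior libraries, Wnt11 did not overlap (0.10 to 0.30 against 3.80 to 6.19 RPKM), while Wnt2 did (2.17 to 2.62 against 0 to 5.65 RPKM). In the run with 2 libraries of each end it was Wnt2 that did not overlap (5.35 and 8.45 against 0.08 and 2.87 RPKM) and Wnt11 that did (0.92 and 1.99 against 1.34 and 5.74 RPKM).

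Wnt9a, a ligand known from joint formation, fell by 0.64 (SE 0.18, adjusted p = 0.0419, limma), the smallest of the 4 changes. Its lowest, median and highest values were 3.27, 5.87 and 9.95 RPKM in anterior libraries and 1.55, 3.90 and 5.90 RPKM in posterior libraries, so the ranges overlapped broadly. The call was lost when any of 17 of the 25 libraries was left out (adjusted p up to 0.0769), that is, any but anterior medial replicate 1, anterior oral replicate 3, anterior nasal replicate 4, the 3 posterior medial replicates and posterior oral replicates 1 and 2, and with the run as a covariate (-0.37, adjusted p = 0.885). Wnt2b, Wnt5b and Wnt16 were tested and did not pass, with log2 differences of -0.26 (SE 0.23, adjusted p = 0.640), 0.08 (SE 0.19, adjusted p = 0.896) and 0.71 (SE 0.54, adjusted p = 0.580) in limma. Wnt4, Wnt6 and Wnt9b fell under this minimum and were not tested.

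**Figure D3:**
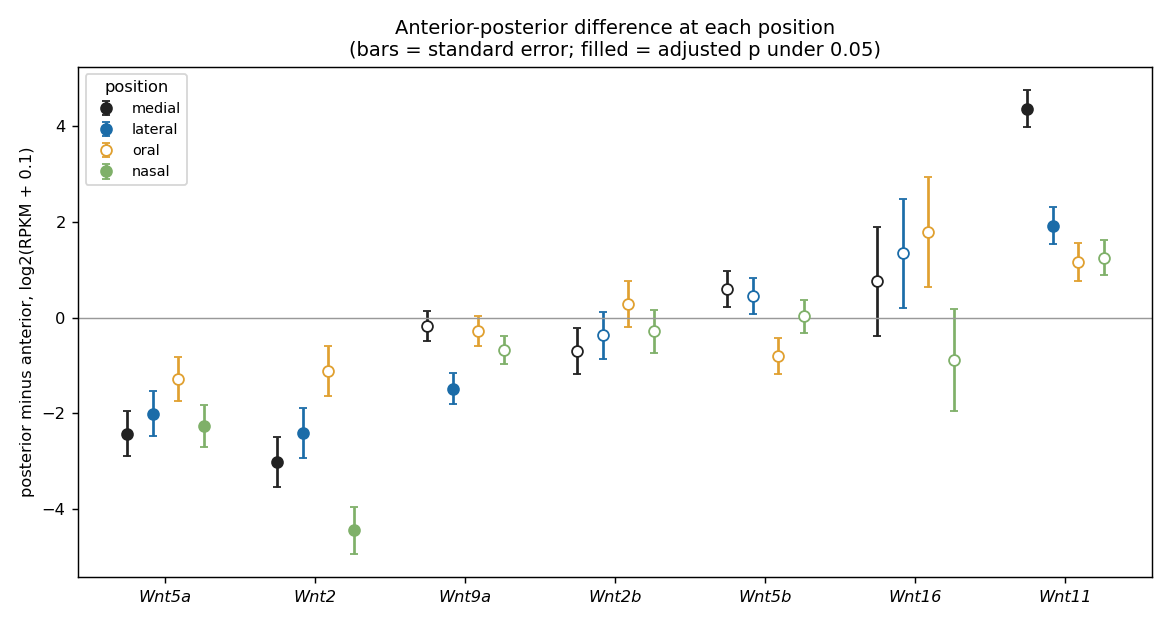
Posterior minus anterior difference in log2(RPKM + 0.1) (vertical axis) of 7 Wnt ligands at the medial, lateral, oral and nasal positions, with the standard error as bars and filled points for an adjusted p under 0.05. The fits shown covered genes with a mean of at least 1 RPKM. Filled points can therefore differ from the calls in the text, which used the minimum of 5 RPKM in 3 libraries. Wnt5a and Wnt2 are below 0 and Wnt11 is above 0 at all 4 positions, and none of the 4 oral or nasal values of Wnt9a and Wnt2b is filled.

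The same contrast was then taken at each position in a single fit of all 8 compartments, over the 11913 genes that reached 5 RPKM in 3 or more libraries. Of the 10 members 5 could be tested: Wnt2, Wnt2b, Wnt5a, Wnt9a and Wnt11. Wnt11 reached 5 RPKM in 0 of 13 anterior and 7 of 12 posterior libraries, and Wnt2 and Wnt9a each in 10 anterior libraries and 1 posterior library. These 3 passed the minimum through the end where they are high, so the counts of members called at each position are a description and not support for a difference. In the medial compartments Wnt2, Wnt5a and Wnt11 were called, where 1.66% of all genes were. Wnt11 rose by 4.37 (SE 0.39, adjusted p = 1.25e-06), and Wnt2 and Wnt5a fell by 3.01 (SE 0.52, adjusted p = 0.00289) and 2.42 (SE 0.46, adjusted p = 0.00600) in limma. Without posterior medial replicate 2 the calls of all 3 were kept, and Wnt5a then fell by 1.56 and Wnt2 by 2.20. The posterior medial values of Wnt2 rested on few or no reads, and its size was -1.39 with a pseudocount of 1 and -4.25 with 0.01. With 1 to 3 reads in each anterior medial library, the size for Wnt11 depended on the pseudocount and was 2.39 with 1 and 5.05 with 0.01.

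In the nasal compartments Wnt2 and Wnt5a were called, where 1.91% of all genes were. Wnt2 fell by 4.44 (SE 0.49, adjusted p = 4.00e-05), from 8.09 ± 1.86 RPKM (SD, n = 4) to 0.315 ± 0.213 RPKM (SD, n = 3), in limma, and with 1 to 4 reads in each posterior library this size too depended on the pseudocount (-2.78 with 1 and -4.94 with 0.01). Wnt5a fell by 2.26 (SE 0.43, adjusted p = 0.00704), a call that was lost with the run as a covariate (-2.42, adjusted p = 0.332) and without the 6 libraries named for another locus (-2.31, adjusted p = 0.0799). Wnt11 was 1.25 higher in posterior nasal (SE 0.36, adjusted p = 0.103) and was called only without posterior nasal replicate 1 (1.70, adjusted p = 0.0263).

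In the lateral compartments all tested members but Wnt2b were called, where 0.865% of all genes were. Wnt2 fell by 2.41 (SE 0.52, adjusted p = 0.0248), Wnt5a by 2.00 (SE 0.46, adjusted p = 0.0409) and Wnt9a by 1.48 (SE 0.31, adjusted p = 0.0215), and Wnt11 rose by 1.92 (SE 0.39, adjusted p = 0.0148), in limma. At this position Wnt9a went from 9.95, 6.84 and 6.34 RPKM in anterior to 3.10, 3.79 and 1.55 RPKM in posterior libraries, which did not overlap, as for 19.2% of genes. With the replicate number as a block, Wnt5a missed the threshold (adjusted p = 0.0560). All 4 missed it with the run as a covariate (adjusted p = 0.434 to 1), where the differences were -2.27 for Wnt2, -1.98 for Wnt5a, -1.34 for Wnt9a and 1.98 for Wnt11. None was left without anterior lateral replicate 2 or posterior lateral replicate 3, and 1 was left without anterior lateral replicate 1 or 3 or posterior lateral replicate 1. The Wnt5a call was kept only where anterior oral replicate 1 or 2, a posterior medial replicate or posterior oral replicate 1 was the library left out. Without the 6 libraries named for another locus Wnt2 alone was called (adjusted p = 0.0213).

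In the oral compartments none of the 5 was called in limma, against 0.512% of all genes, and 3 of the 5 had an unadjusted p under 0.05, against 7.21% of all genes. The log2 differences were -1.28 for Wnt5a (SE 0.46, adjusted p = 0.539), -1.11 for Wnt2 (SE 0.52, adjusted p = 0.677) and 1.16 for Wnt11 (SE 0.39, adjusted p = 0.429), and the libraries of each did not overlap between the ends, as for 8.89% of all genes. Without posterior medial replicate 2 Wnt5a in oral was called at the same size (SE 0.24, adjusted p = 0.00866).

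Markers of other cell types moved with these contrasts as well. The 6 osteoblast markers summed to 89.2 to 117 RPKM in anterior and 376 to 549 RPKM in posterior nasal libraries, and the 4 cartilage markers to 9.03 to 11.4 and 28.8 to 36.6 RPKM in lateral, 7.67 to 14.4 and 26.8 to 51.7 RPKM in oral and 21.9 to 30.6 and 46.1 to 81.5 RPKM in nasal. The 12 epithelial markers summed to 41.8 to 93.4 against 23.7 to 39.2 RPKM in lateral and 47.8 to 107 against 24.6 to 46.4 RPKM in oral. In medial the epithelial and cartilage sums overlapped between the ends, and the osteoblast sums were 71.7 to 103 and 64.5 to 69.5 RPKM. Of the osteoblast markers Bglap was at 0 in 14 and Dmp1 in 7 of the 25 libraries, and of the cartilage markers Matn1 in 10. Over all compartments Bglap and Dmp1 averaged 0.82 and 1.18 RPKM in anterior and 0.27 and 0.40 RPKM in posterior libraries. Runx2, Sp7, Alpl and Ibsp averaged higher in posterior libraries. The part of these cell types in the Wnt differences was not tested.

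Lateral and medial compartments were compared next, as pairs within each end of the palate. In the anterior palate Wnt2 alone of the 4 members tested was called, where 2.51% of 10427 genes were. It passed the minimum of 5 RPKM through its lateral libraries only, so its call is a description. It was 2.17, 2.31 and 2.62 RPKM in medial and 7.12, 10.05 and 8.90 RPKM in lateral libraries, a log2 difference of 1.82 (SE 0.16, adjusted p = 0.00222, limma). All medial libraries were of 1 sequencing run and all lateral ones of 2 others, so run and compartment cannot be told apart within the pair. In a fit of all 25 libraries the difference had an SE of 0.51 (adjusted p = 0.244), and with the run as a covariate it was 1.91 (SE 0.88, adjusted p = 1.00). Without any 1 of the 3 lateral libraries Wnt2 no longer passed the minimum and was not tested. Wnt5a, Wnt2b and Wnt9a differed by 0.29 (SE 0.16), 0.26 (SE 0.22) and 0.46 (SE 0.28), with adjusted p-values from 0.476 to 0.679 in limma.

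Wnt11 showed the same order in the anterior palate at lower levels, 0.10 to 0.30 RPKM in medial and 1.22 to 2.42 RPKM in lateral libraries, and was under both minimums in this pair. The ranges did not overlap, as for 21.3% of the genes tested in the pair. The summed level of 5 endothelial markers was 96.6 to 115 RPKM in anterior medial and 132 to 150 RPKM in anterior lateral, and that of 12 epithelial markers was 72.1 to 131 and 41.8 to 93.4 RPKM. No endothelial marker was at 0 in any library. Of the epithelial markers, Cdh1, Epcam, Krt5, Krt14, Krt15, Trp63 and Esrp1 were never at 0, while Krt8, Krt18 and Grhl2 were at 0 in 1 library each and Cldn6 in 2. Their part in the Wnt2 difference was not tested.

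In the posterior palate no member was called between lateral and medial, as no gene of 10324 was (0%), while 1.54% of genes had an unadjusted p under 0.05. Wnt2b, Wnt5a and Wnt11, the 3 members tested in limma, differed by 0.59, 0.71 and 0.38, with 95% intervals of -0.68 to 1.85, -1.06 to 2.48 and -0.45 to 1.20, and none had an unadjusted p under 0.05. Without posterior medial replicate 2 the Wnt5a difference turned to -0.16. Wnt2 was higher in each posterior lateral library (1.17 to 2.18 RPKM) than in each posterior medial one (0 to 0.61 RPKM), which held for 6.62% of genes, but it was under the minimum.

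Whether the lateral-medial difference itself changed along the palate was tested as an interaction, in which 0.0923% of 11913 genes and none of the 5 members were called in limma. Wnt11 came nearest. Its lateral-medial difference differed between the ends by -2.45 from anterior to posterior (SE 0.55, unadjusted p = 2.50e-04, adjusted p = 0.119), with medial 0.16 ± 0.11 and lateral 1.73 ± 0.62 RPKM at the anterior end and 5.15 ± 1.17 and 6.78 ± 1.89 RPKM at the posterior end (SD, n = 3 each). With 1 to 3 reads in each anterior medial library this size depended on the pseudocount and was -0.88 with 1. For Wnt9a this value was -1.31 (SE 0.44, adjusted p = 0.680, limma), and these 2 members had an unadjusted p under 0.05, as did 4.22% of all genes.

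Oral and nasal compartments face the mouth and the nasal cavity. In the anterior palate none of 4 members was called in limma, as no gene of 10684 was (0%), while 2.98% of genes had an unadjusted p under 0.05. Wnt2, Wnt2b, Wnt5a and Wnt9a differed by 0.21, -0.01, -0.43 and 0.06, and none had an unadjusted p under 0.05. The 95% intervals reached from -0.43 to 0.85 for Wnt2 and from -1.13 to 0.26 for Wnt5a. Wnt11 was 1.99 to 3.22 RPKM in anterior oral and 0.90 to 1.42 RPKM in anterior nasal libraries, without overlap, as for 3.67% of genes, and with the lower minimum (0% of 14847 genes called) its difference of 1.14 (SE 0.28) had an adjusted p of 0.778 in limma.

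In the posterior palate Wnt2 separated the surfaces. Its 3 oral libraries held 2.87, 5.65 and 4.49 RPKM, or 37.9, 41 and 35 reads, and its 3 nasal libraries 0.08, 0.49 and 0.38 RPKM, or 1, 4 and 2 reads. The groups did not overlap, as for 11.8% of genes. No member was called in limma among the 3 that passed the 5 RPKM minimum (1.25% of 10586 genes called), of which Wnt2b and Wnt11 had an unadjusted p under 0.05, as did 8% of genes, and Wnt2 was not among them. With the minimum of a mean of 1 RPKM it was tested and called, with a log2 difference of 3.54 (SE 0.49, adjusted p = 0.0404 in limma, 0.735% of 14023 genes called). Wnt2 passed that minimum through its oral libraries only, so this call is a description. With 1 to 4 reads in each nasal library, the size rests on few reads. Wnt11, Wnt2b and Wnt5a were 1.05 (SE 0.42), 0.55 (SE 0.23) and 0.54 (SE 0.25) higher in posterior oral than in posterior nasal, with adjusted p-values from 0.537 to 0.664 in limma.

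Other cell types differed between these compartments as well. The 5 endothelial markers summed to 118 to 179 RPKM in posterior oral and 52.3 to 79.3 RPKM in posterior nasal, and the 6 osteoblast markers to 82.8 to 105 and 376 to 549 RPKM. Their part in the Wnt2 difference was not tested. In the anterior palate the endothelial sums were 116 to 176 RPKM in oral and 64.5 to 110 RPKM in nasal, where the log2 difference of Wnt2 was 0.21.

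The oral-nasal difference of Wnt2 was 3.33 larger in the posterior than in the anterior palate (SE 0.71, unadjusted p = 1.51e-04). It did not pass the adjusted threshold in limma (adjusted p = 0.112), and nor did any other of the 5 members, while 0.0755% of 11913 genes did. It was the single member with an unadjusted p under 0.05, against 2.49% of genes. It passed without posterior medial replicate 1 or 2 (adjusted p = 0.0489 and 0.0119) and with a pseudocount of 1, where it was 1.81 (adjusted p = 0.0312). The order of Wnt2 over the 8 compartments was anterior oral, anterior lateral, anterior nasal, posterior oral, anterior medial, posterior lateral, posterior nasal and posterior medial. Libraries did not overlap between posterior oral and anterior medial or between posterior lateral and posterior nasal, and they overlapped between all other neighbours in that order.

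Wnt2b, the closest relative of Wnt2, was called in no comparison. Its compartment means ran from 4.73 ± 2.48 RPKM in posterior medial to 8.29 ± 1.51 RPKM in anterior lateral (SD, n = 3 each), and every neighbour in the order overlapped. The single lowest value, 1.91 RPKM, was that of posterior medial replicate 2. With a median of 83.6 reads per library it was the best counted of the 9 members for which reads could be worked out, and the 95% interval of its lateral-medial difference in the anterior palate was -0.27 to 0.78. The intervals were wider between posterior lateral and medial (-0.68 to 1.85) and between anterior oral and nasal (-1.24 to 1.22). Between posterior oral and nasal, where its libraries did not overlap (6.27 to 8.99 and 4.37 to 6.03 RPKM, as for 11.8% of genes), the difference was 0.55 with an interval of 0.02 to 1.09 and an adjusted p of 0.590 in limma. Wnt5b, the paralogue of Wnt5a, was likewise between 1.51 and 6.75 RPKM in all libraries, with 8 to 72 reads, and its highest value was in posterior medial replicate 2.

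Wnt16, known from cortical bone, was uneven between replicates. It reached 11.5 RPKM in posterior lateral replicate 1 and 9.55 RPKM in posterior medial replicate 1, or 275 and 210 reads, while the other libraries of these compartments held 0.83 and 2.49 RPKM in lateral and 0 and 4.98 RPKM in medial. Both of the high libraries were the ones whose alignment names carried ERK2. Without all 6 libraries named for Tgfbr2 or ERK2 the anterior-posterior difference of Wnt16 was 0.06 in place of 0.71. In posterior oral it was steady, at 2.02 to 2.46 RPKM.

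Wnt4, known from kidney and gonad development, was listed at 0 in 6 of 25 libraries and had at most 11.6 reads. It was at 1.15 to 1.22 RPKM in the 3 posterior nasal and 1.06 to 2.61 RPKM in the 3 anterior lateral libraries. Wnt6, an epithelial ligand in many organs, was at 0 in 6 libraries and had at most 12.7 reads. Wnt9b was at 0 in 17 of 25 libraries and had 26.2 reads in all, of which 8 and 7 were in anterior nasal replicates 1 and 4. A count of 0 allows up to 3 reads, which for Wnt9b equals 0.101 RPKM in the deepest and 0.405 RPKM in the shallowest library. These limits cover counting error only.

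The machinery around the ligands was compared by lists of pathway genes. Wls and Porcn, on which Wnt secretion depends, averaged 20.6 and 8.69 RPKM in the anterior and 19.2 and 8.51 RPKM in the posterior palate, and neither was called. Of 16 receptors and co-receptors 15 were in the table, 10 were tested between anterior and posterior and 1 was called, Fzd1, which rose by 0.73 (SE 0.13, adjusted p = 8.58e-04, limma) from 28.1 ± 7.14 to 46.0 ± 8.26 RPKM. The receptors Ror2 and Ryk, which bind Wnt5a, averaged 14.9 and 25.7 RPKM in anterior and 13.9 and 27.9 RPKM in posterior libraries and were not called. Across all genes 3.32% were called in this contrast.

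Several secreted inhibitors fell in the same direction as Wnt5a. Of 13 genes 8 were tested between anterior and posterior, and 4 fell and none rose, where 1.66% of all genes fell. The 8 had a median log2 difference of -0.46, against 0.03 over all genes tested. Sfrp4 and Wif1 would not have passed the minimum by their posterior libraries alone, so the count and the median are a description. The most abundant inhibitors, Sfrp2 and Sfrp1, averaged 376 and 113 RPKM in anterior and 483 and 101 RPKM in posterior libraries and were not called. Dkk2, which blocks the Lrp co-receptors, fell by 1.42 (SE 0.25, adjusted p = 8.58e-04, limma), from 41.6 ± 16.3 to 16.0 ± 9.29 RPKM. Sfrp4 and Frzb, which bind Wnt proteins, fell by 2.33 (SE 0.50, adjusted p = 0.00550) and 0.77 (SE 0.19, adjusted p = 0.0164) in limma. The fourth was Wif1, another Wnt-binding protein, which fell by 1.65 (SE 0.42, adjusted p = 0.0246, limma) and was named after its value was seen.

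The R-spondins, which raise the number of Frizzled receptors at the surface, split. Rspo3 rose by 1.72 (SE 0.25, adjusted p = 5.77e-05), from 8.33 ± 2.95 to 29.2 ± 14.3 RPKM, and Rspo1 fell by 1.47 (SE 0.42, adjusted p = 0.0489), from 90.3 ± 20.8 to 41.6 ± 20.3 RPKM, in limma. The posterior medial libraries of Rspo1 ran from 1.16 to 80.3 RPKM. Calls of pathway genes were not checked with a library left out or with the run as a covariate. Of 8 planar polarity genes 3 were tested and Prickle2 fell by 0.95 (SE 0.24, adjusted p = 0.0242, limma). Rspo3 would not have passed the minimum by its anterior libraries alone, nor Prickle2 by its posterior ones, so these calls too are descriptions. None of the 8 cytoplasmic beta-catenin pathway genes tested and none of the 6 beta-catenin target genes tested was called in limma, with 1 of each at an unadjusted p under 0.05, as were 15.3% of all genes. The readout gene Axin2 averaged 19.8 RPKM in anterior and 23.6 RPKM in posterior libraries.

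**Figure D4:**
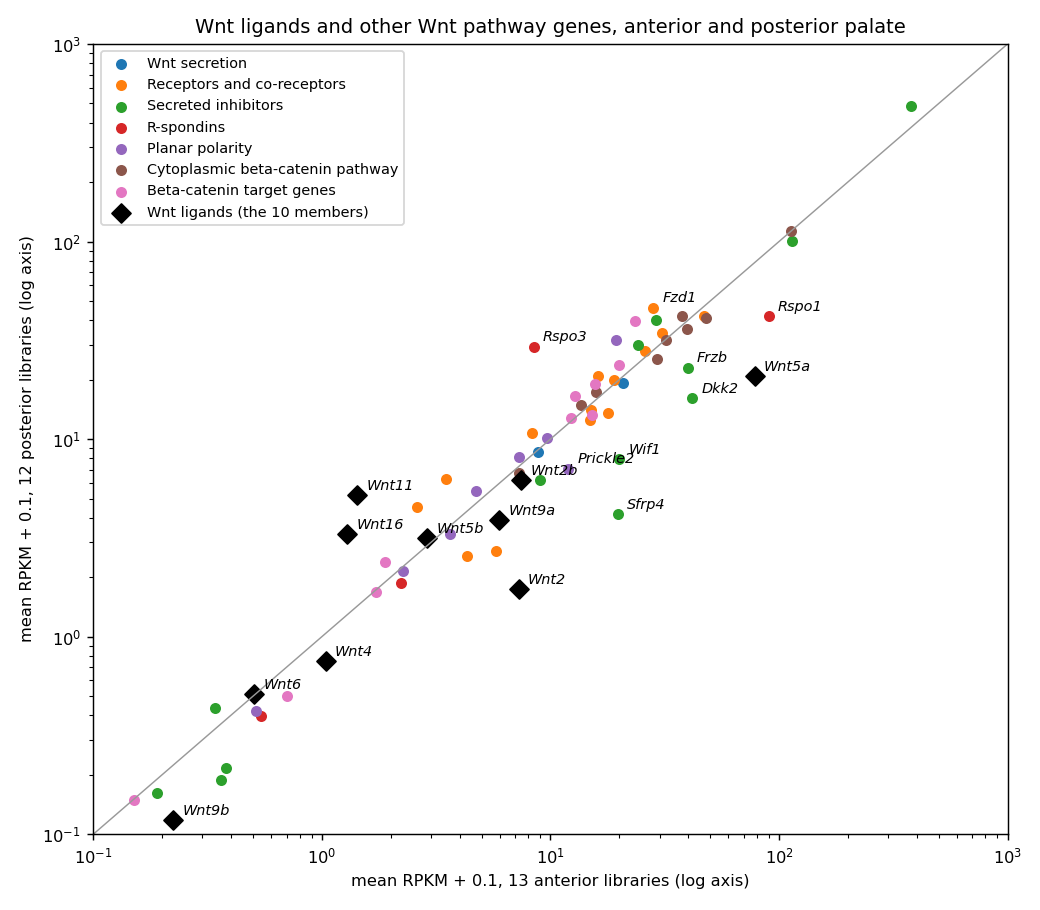
Mean RPKM + 0.1 of Wnt ligands (black diamonds) and other Wnt pathway genes (points coloured by list) in 13 anterior (horizontal, log axis) and 12 posterior libraries (vertical, log axis), with the line of equal levels. Wnt5a, Wnt2 and the inhibitors Dkk2, Sfrp4, Frzb and Wif1 lie below the line, and Wnt11 and Rspo3 lie above it.

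Within an end of the palate, fewer pathway genes were called. Fzd6 was higher in anterior lateral than in anterior medial by 1.75 (SE 0.21, adjusted p = 0.00691, limma), at 8.03 ± 0.34 against 2.40 ± 0.78 RPKM, and so had the same order as Wnt2 in that pair. Tcf7, a TCF/LEF factor and target gene, had a log2 difference of -1.5 between anterior lateral and anterior medial (SE 0.24, adjusted p = 0.0205) and of -2.36 between posterior oral and posterior nasal (SE 0.21, adjusted p = 0.00326), in limma, lower in lateral and lower in oral. Dkk1, an inhibitor, was lower in posterior oral than in posterior nasal, with a log2 difference of -1.71 (SE 0.25, adjusted p = 0.0212, limma). Fzd6 passed the minimum through its lateral libraries only and Dkk1 through its nasal ones only, so these calls are descriptions. In the anterior pair, run and compartment cannot be told apart for Fzd6 and Tcf7 either. In the pairs in which Tcf7 was called, Wnt2 was higher where Tcf7 was lower, and a link between them was not tested. Of the 6 beta-catenin target genes tested in each of these pairs, Tcf7 alone was called. No gene of the 8 lists was called in the other 2 pairs, in which no gene of any kind was.

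Genes whose levels ran most like those of a member over the 25 libraries were found by Pearson's r on the log2 scale among 11124 genes, as a description. All 25 points share their sequencing runs and the split between anterior and posterior. For Wnt5a they were Msx1as (r = 0.94), Col14a1 (0.93) and Il17rd (0.91), and Msx1as averaged 21.0 RPKM in anterior and 0.93 RPKM in posterior libraries. For Wnt11 they were Dlx1 (0.87), Kcnt2 (0.86) and Sim2 (0.84), of which the transcription factor gene Sim2 averaged 1.51 and 36.6 RPKM. For Wnt2 they were A930038C07Rik (0.88), Nrp1 (0.88) and Fam198b (0.88), for Wnt2b Dis3l2 (0.87), Mtmr3 (0.86) and Mir493 (0.85), and for Wnt9a Pthlh (0.76), 2010111I01Rik (0.72) and Tfap2a (0.70).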

How the data were processed

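The 10 Wnt ligands and the lists of pathway genes and markers were chosen with earlier results of these data known. The authors deposited RPKM values per gene, made in GeneSpring from single-end reads of 50 bases after duplicate reads and reads with more than 1 alignment were removed. Per the labels, RNA was amplified with the NuGEN Ovation system and tagmented with Nextera, and the submitters' processing notes name TopHat and mm9. No library size was used here, but the members' values were whole multiples of 1 base of read overlap (within 0.01), which gave relative depth and the reads behind a member, Wnt5a excepted. Relative depths taken by way of another library were the same for 274 of 276 ratios. Sequencing runs (8) were read from alignment names in the study's supplementary table.

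Values were taken as log2(RPKM + 0.1), so changes of low genes are understated, and no further scaling was added. Tests were made with limma 3.58.1 in R 4.3.3 (lmFit, eBayes), two-sided, with Benjamini-Hochberg adjustment over all genes tested, on the 2 compartments of a pair, on 12 posterior against 13 anterior libraries, or on all 8 compartments for contrasts at a position and interactions. Differences are given as lateral over medial, oral over nasal and posterior over anterior. Minimums were 5 RPKM in 3 libraries and, for anterior against posterior, 10 RPKM in 6. The script was tested on simulated data. All 10 members were named, and of each pathway list up to 3 called genes with the smallest adjusted p in a comparison. Nearest genes were the 3 with the highest r for members at 5 RPKM or more in at least 6 libraries. Alternatives were other pseudocounts (1 and 0.01), other minimums, median centring, a block for replicate number, the run as a covariate, other sets of samples, and each library left out. Fits with the run as a covariate were made on all 25 libraries with 8 compartment means, also where the main test compared 2 groups. The combinations with the lower minimum and the fit without 6 libraries were chosen after seeing the data.

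The labels number replicates alike in every compartment. Deviations of same-numbered libraries correlated from -0.396 to 0.327 over 24 pairs, with 11 of them over 0.1. Only anterior oral and anterior nasal had all 3 pairs over 0.1. Of these, only the libraries of replicate 1 shared a sequencing run, so whether the numbers pair libraries there is uncertain. The block changed no member's call in that pair. Promoter windows came from RefSeq in GRCm38.p6 and were used for letters only, since the deposited positions are mm9.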

Additional observations from a re-analysis of the deposited data

Results flagged for a closer look

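Wnt11 in the anterior nasal compartment held 0.97, 0.90, 1.42 and 0.92 RPKM. Anterior nasal replicate 3 stood away from the other 3, and the gap to its nearest neighbour was 0.870 of the whole range of the group. This is past the limit that Dixon's test sets for 4 samples, a limit that chance passes in about 1 group of 20, and 10 members were examined in this group.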

How the results depend on the processing

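The number of members called depended on the minimum level. Between anterior and posterior it was 1 with the study's minimum, 4 with a mean of at least 1 RPKM and 3 with no minimum, and between posterior oral and nasal it was 0 and, with a mean of at least 1 RPKM, 1 (Wnt2). With no minimum Wnt9a was tested and not called (adjusted p = 0.0678 in limma). The single call between anterior lateral and medial became 0 in a fit of all 25 libraries and 0 with the run as a covariate, and 0 to 1 when a library was left out, since Wnt2 then fell under the minimum without any of the 3 lateral libraries. The 4 lateral anterior-posterior calls became 2 with a pseudocount of 0.01, 2 with no minimum, 0 with the run as a covariate, 1 without the 6 libraries named for another locus, and 0 to 4 with a library left out. The 2 nasal calls became 1 with the run as a covariate and 1 without the 6 libraries. In oral, leaving out a library gave 0 to 1. The oral-nasal interaction gave 1 call in place of 0 with a pseudocount of 1 and 0 to 1 with a library left out. Where not stated, the cause was not tested. No member's called difference turned its sign, and 1466 of 1490 member values under alternatives had the sign reported.

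With replicate number as a block, all members' calls were unchanged except Wnt5a in lateral, anterior against posterior (adjusted p = 0.0560 in limma), where 3 of 5 members were called. Centring libraries on their median moved the share of positive calls over all genes between anterior and posterior from 50% to 38.91% and in nasal from 36.56% to 27.19%, and left each member's call as it was. The median gene moved by -0.12 in the medial, 0.11 in the oral and 0.11 in the nasal contrast, which centring removes. Over all genes, calls between anterior and posterior went from 286 to 485 with no minimum, 524 with a mean of 1 RPKM and 143 with the run as a covariate. Between anterior lateral and medial they went from 262 to 157 with no minimum, 157 with the block, 31 in the fit of all libraries and 0 with the run, and in the posterior pair from 0 to 25 in the fit of all libraries. Between posterior oral and nasal they went from 132 to 11 with no minimum, 68 in the fit of all libraries and 15 with the run, and in the anterior pair from 0 to 6 and 4 in the latter 2 fits. With the run, the 103 lateral, 61 oral and 227 nasal calls became 15, 13 and 34, and without the 6 libraries the oral and nasal calls became 34 and 96, and the nasal ones 143 with the block. The 11 and 9 interaction calls both became 0 with the run. Where a library was left out of a group of 3, the pooled spread of the fit was used. Depth limits Wnt4, Wnt6 and Wnt9b most, at medians of 3, 2 and 0 reads.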
